A study of Mus musculus with 6 samples.

Results

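The Hox cluster genes are the transcription factor genes named Hoxa, Hoxb, Hoxc or Hoxd and a number, which lie in 4 clusters of the mouse genome. Rows of the gene expression table were taken as members when the symbol mapped from their Ensembl identifier had this form and the annotation called the gene protein-coding, and 39 of the 24970 rows qualified. They were measured in primary mouse vascular smooth muscle cells (VSMCs), the contractile cells of the artery wall, after transfection with small interfering RNA (siRNA) against Pfkfb3, which encodes a bifunctional enzyme that drives glycolysis. The question was what Pfkfb3 depletion does to gene expression in these cells. There were 3 siPfkfb3 libraries and 3 siScrambled libraries, both made 48 h after transfection at 20 nM from cells isolated with collagenase from 12 male C57BL/6 mice of 6 weeks and grown in α-MEM with fetal bovine serum. The siPfkfb3 libraries are labelled as knockdowns and the siScrambled libraries as wild type, all in normal growth medium. The knockdown label of siPfkfb3 replicates 2 and 3 names PFKFB4 and PFKFB5 while their titles name PFKFB3, and the titles were followed. The labels do not name the artery, and they do not say whether the replicates came from separate isolations, so a p-value here speaks only of the spread among these libraries, which may be technical.

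Hox proteins bind DNA through a homeodomain and give cells their position along the head-to-tail axis of the embryo. Genes at the 3′ end of a cluster (low paralog numbers) are used towards the head and genes at the 5′ end (high paralog numbers) towards the tail, and a paralog group is the set of genes that hold the same place in the different clusters. Adult mesenchymal cells, smooth muscle cells of arteries among them, keep part of the Hox pattern of the region where they arose. Hox proteins bind many of their sites together with TALE homeodomain partners (PBX, MEIS and PKNOX proteins), Polycomb complexes hold Hox genes silent, and trithorax complexes keep them active.

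Values are FPKM, fragments scaled by gene length and by the mapped fragments of the library, and levels are compared between genes on that scale. Pfkfb3 itself was at 1.92, 1.65 and 1.77 FPKM in the siPfkfb3 libraries, against 4.03, 4.02 and 3.86 FPKM in the siScrambled libraries, which left 44.9% of the siScrambled mean (log2 fold change -0.84 ± 0.07, limma adjusted p = 2.66e-05; exact permutation p = 0.10, the smallest that 3 against 3 allows). Pfkfb4, named by the knockdown label of siPfkfb3 replicate 2, was at 1.95, 1.49 and 1.53 FPKM in the siPfkfb3 libraries and at 1.58, 1.96 and 2.10 FPKM in the siScrambled libraries. All 10 smooth muscle markers were above 1 FPKM, none of 7 endothelial markers was, and of 7 leukocyte markers 3 were. The lowest smooth muscle markers were Des (1.03 FPKM) and Myocd (1.35 FPKM). Also above 1 FPKM were all 8 adventitial fibroblast markers, 5 of 6 cartilage markers and 5 of 6 neural crest and Schwann cell markers. The markers thus do not assign the Hox levels to smooth muscle cells alone. Between 11189 and 11247 genes per library reached 1 FPKM. FPKM carries no read counts, so the depth is unknown, and relative depth read from the smallest values differed by at most 1.24 times between libraries.

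The cells expressed the 3′ and middle parts of HoxA and HoxB, 3 genes of HoxC, and almost nothing of HoxD. Averaged over the 6 libraries, 18 of the 39 genes reached 1 FPKM. These were 7 of 11 HoxA genes, 8 of 10 HoxB genes, 3 of 9 HoxC genes and 0 of 9 HoxD genes. Of the other 21, 10 had a mean above 0 and under 1 FPKM, and 11 were listed at 0 in all 6 libraries. An exact 0 can be a failed estimate in a table without counts. None of 20 housekeeping genes was listed at 0 in any library. They were picked as genes that every cell uses, so they cannot decide this for Hox genes of low level.

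Arranged by paralog group, the members above 1 FPKM stopped at group 9. Group 2, which patterns the hindbrain and the pharyngeal arches in the embryo, had 2 of 2 members above 1 FPKM, group 3 had 2 of 3 and group 4 had 3 of 4. Groups 5, 6, 7 and 8, whose members mark the neck and thorax of the embryo, had 2 of 3, 3 of 3, 2 of 2 and 2 of 3. In group 9, Hoxb9 alone of 4 members was above 1 FPKM. In groups 10 to 13, which pattern the lumbar, sacral and tail regions and the outer limb, none of 3, 3, 2 and 4 members reached 1 FPKM. Summed over genes, groups 4 to 8 held 61.5% of all Hox FPKM and groups 9 to 13 held 7.24%. By cluster the shares were 31.3% for HoxA, 50.3% for HoxB, 18.3% for HoxC and 0.0977% for HoxD.

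**Figure D1:**
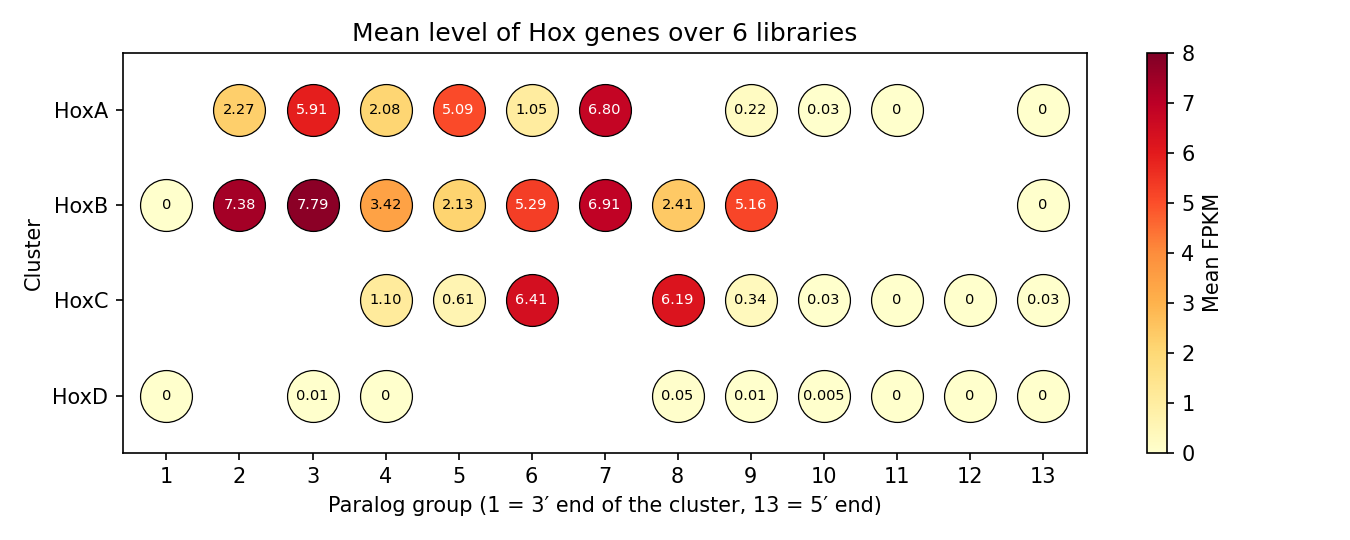
Mean FPKM over the 6 libraries for Hox genes, with clusters HoxA to HoxD in rows and paralog groups in columns; each circle is a gene, with its mean FPKM as colour and as a number. The genes of at least 1 FPKM lie in groups up to 9 of HoxA, HoxB and HoxC, and the HoxD row stays at or below 0.0493 FPKM.

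In HoxA and HoxC the level dropped between neighbouring genes. In HoxA (GRCm38 chromosome 6, minus strand), Hoxa7, a gene of thoracic patterning, was at 6.45 to 7.13 FPKM. Its 5′ neighbour Hoxa9, known for its part in blood progenitors and leukaemia, was at 0.110 to 0.462 FPKM, with transcription ends 8.61 kb apart. Hoxa10, needed in the mouse uterus, had a mean of 0.0265 FPKM, and Hoxa11 and Hoxa13 were listed at 0. The same step was seen in HoxC (chromosome 15, 102921103 to 103036852, plus strand), where Hoxc8, which sets motor neuron pools of the brachial spinal cord, was at 5.58 to 6.55 FPKM and Hoxc9, a marker of the thoracic spinal cord, at 0.191 to 0.479 FPKM, 9.01 kb away. No library of Hoxa7 or Hoxc8 overlapped a library of its 5′ neighbour.

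HoxB (chromosome 11, 96194316 to 96368256, plus strand) was expressed from Hoxb2 to Hoxb9. Hoxb9, which acts in the thoracic skeleton, was at 4.496 to 5.85 FPKM, and Hoxb13, a gene of the tail and prostate whose transcription end lies 79.1 kb further 5′, was listed at 0. At the other end Hoxb1, a hindbrain gene, was listed at 0 while Hoxb2, 14.2 kb away, was at 5.74 to 8.28 FPKM. In HoxD (chromosome 2, 74668310 to 74765142, plus strand) Hoxd8 was the highest of the 9 genes at a mean of 0.0493 FPKM, and Hoxd1, Hoxd4, Hoxd11, Hoxd12 and Hoxd13 were listed at 0. Genes outside the HoxD cluster were expressed: Mtx2, a mitochondrial outer membrane protein gene 60.7 kb from it, had a mean of 6.18 FPKM, and Lnpk, an endoplasmic reticulum protein gene 88.9 kb from it on the other side, had 8.91 FPKM. Evx2, a homeobox gene 8.75 kb from the cluster, was listed at 0.

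**Figure D2:**
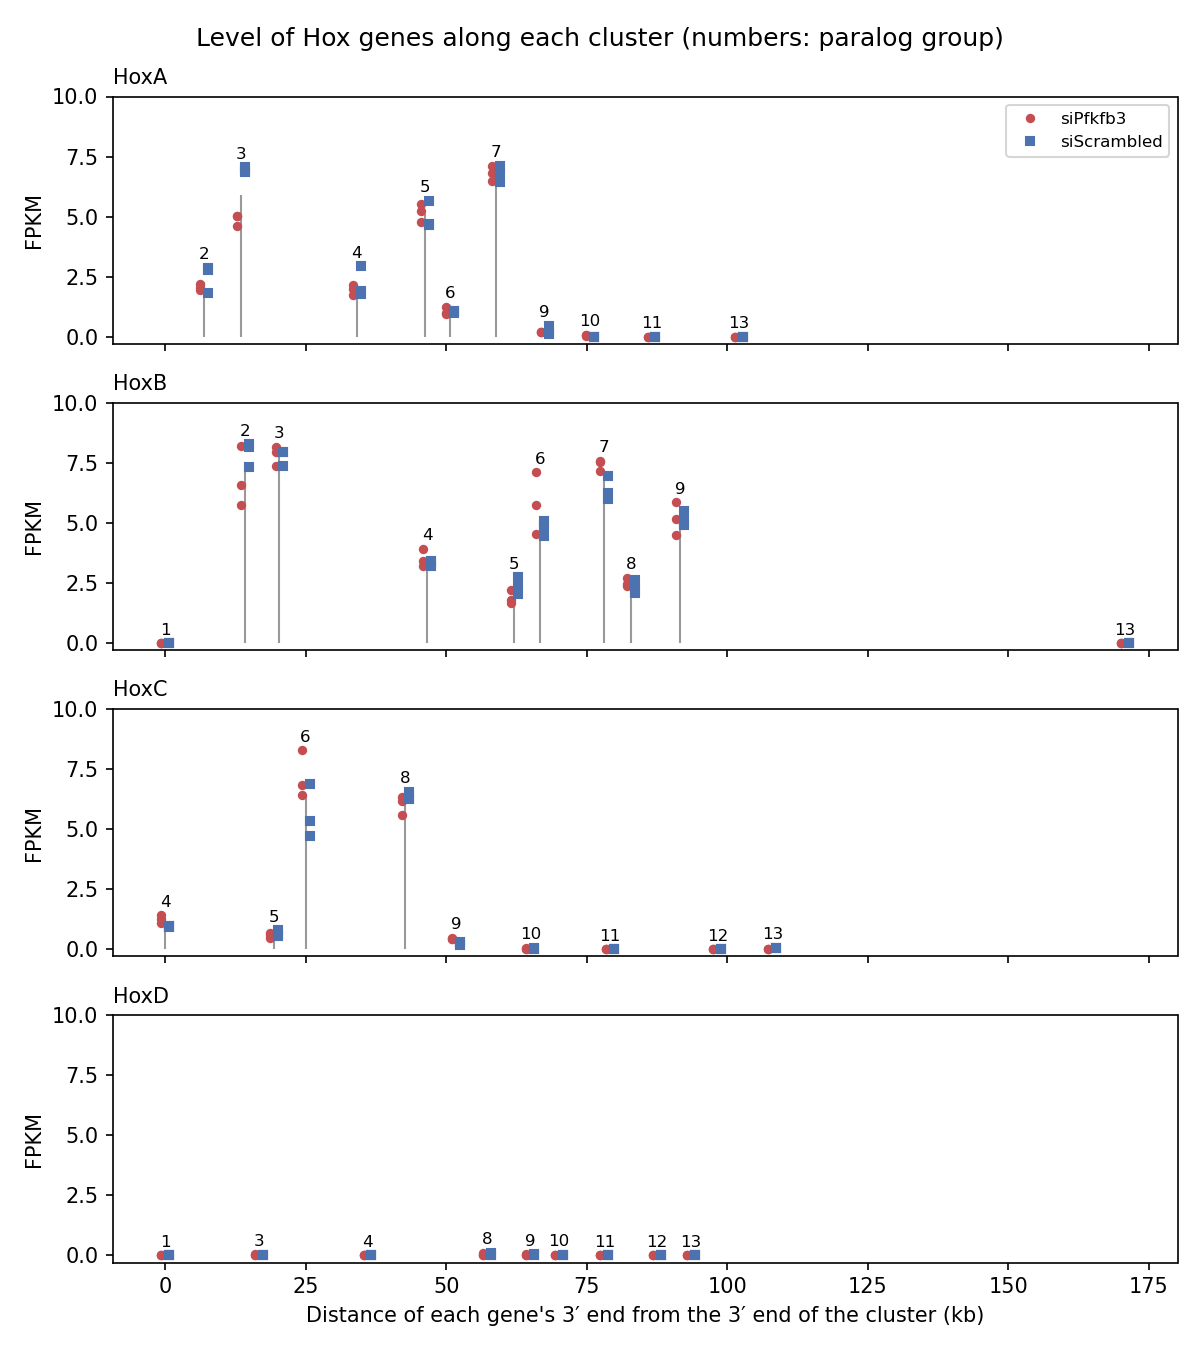
Level of Hox genes (FPKM, y axis, linear) against the distance of their transcription ends from the 3′ end of the cluster (kb, x axis), with 1 panel per cluster and 1 point per library, siPfkfb3 and siScrambled in different colours. Every point 5′ of Hoxa7, Hoxb9 and Hoxc8 lies below 1 FPKM, as do Hoxb1, Hoxc5 and some points of Hoxa6 and Hoxc4 on the 3′ side, and all HoxD points lie near 0.

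Promoters of 4 HoxA genes are shown because they stand on the 2 sides of the HoxA edge. Hoxa3 and Hoxa5 were expressed and Hoxa9 and Hoxa10 were not above 1 FPKM, and Hoxa3 is the gene with the clearest difference between the groups. Each window runs from 250 bases before to 50 after the RefSeq start, on the minus strand of GRCm38.p6, at chr6:52213018-52213317 for Hoxa3, chr6:52204538-52204837 for Hoxa5, chr6:52227321-52227620 for Hoxa9 and chr6:52240805-52241104 for Hoxa10. Capitals mark TAAT, the core that homeodomains bind, on either strand, so that it also reads ATTA.
Hoxa3: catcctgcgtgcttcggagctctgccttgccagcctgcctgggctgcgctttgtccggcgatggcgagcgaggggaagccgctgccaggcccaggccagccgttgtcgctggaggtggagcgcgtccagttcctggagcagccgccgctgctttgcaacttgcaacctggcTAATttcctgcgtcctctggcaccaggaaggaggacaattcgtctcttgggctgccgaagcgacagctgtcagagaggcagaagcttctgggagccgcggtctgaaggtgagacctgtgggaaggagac
Hoxa5: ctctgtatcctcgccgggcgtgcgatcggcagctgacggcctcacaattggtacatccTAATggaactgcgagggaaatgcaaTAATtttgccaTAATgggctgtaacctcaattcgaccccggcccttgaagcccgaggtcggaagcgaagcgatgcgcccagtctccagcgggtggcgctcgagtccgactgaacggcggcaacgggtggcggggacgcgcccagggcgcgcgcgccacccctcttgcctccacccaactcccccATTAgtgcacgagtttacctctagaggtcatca
Hoxa9: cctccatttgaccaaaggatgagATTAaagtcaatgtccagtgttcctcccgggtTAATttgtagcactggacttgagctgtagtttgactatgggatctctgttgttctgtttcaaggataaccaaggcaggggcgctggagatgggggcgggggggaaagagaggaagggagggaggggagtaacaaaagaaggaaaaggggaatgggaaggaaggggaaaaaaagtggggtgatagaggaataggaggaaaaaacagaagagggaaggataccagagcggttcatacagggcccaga
Hoxa10: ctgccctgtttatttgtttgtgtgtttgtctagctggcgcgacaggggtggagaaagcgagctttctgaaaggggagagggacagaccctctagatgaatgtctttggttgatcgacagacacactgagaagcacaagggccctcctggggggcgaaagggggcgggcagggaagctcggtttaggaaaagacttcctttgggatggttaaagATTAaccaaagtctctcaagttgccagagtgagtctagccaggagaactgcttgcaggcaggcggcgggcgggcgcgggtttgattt

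The Hoxa3 window held 1 TAAT and 20 CpG dinucleotides, and the Hoxa5 window held 4 TAAT and 29 CpG. The Hoxa9 window held 2 TAAT and 4 CpG, and the Hoxa10 window 1 TAAT and 12 CpG. The window of Hoxa7, the expressed gene at the edge itself, is not printed and held 0 TAAT and 9 CpG. A second Hoxa10 window, not printed either, held 3 TAAT and 21 CpG. The RefSeq starts used for Hoxa9 and Hoxa7 lie 3719 and 3281 bases from the GENCODE starts, inside the annotated genes. RefSeq windows were matched for 22 of the 39 Hox genes, 24 windows in all. TAAT was in 19 of these 24 (79.2%) and in 58.0% of all 32851 promoter windows of the same table. The motif TGATNNAT, a composite that Hox and PBX proteins bind together, was searched on both strands and can overlap TAAT. It was in 4 of the 24 Hox windows (16.7%), none of them printed here, and in 8.85% of all windows. The median was 13.5 CpG in the 8 windows of genes above 1 FPKM, 17.5 CpG in the 16 windows of genes under it, and 7 CpG over all windows. A match is a description of the letters in these windows and not of a bound site.

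The 18 genes above 1 FPKM spanned a range of levels from 1.05 to 7.79 FPKM, and the highest of them, Hoxb3, was above 71.6% of the Ensembl rows of the table. In falling order of the mean, 17 of them were Hoxb3 (7.79 FPKM), Hoxb2 (7.38), Hoxb7 (6.91), Hoxa7 (6.80), Hoxc6 (6.41), Hoxc8 (6.19), Hoxa3 (5.91), Hoxb6 (5.29), Hoxb9 (5.16), Hoxa5 (5.09), Hoxb4 (3.42), Hoxb8 (2.41), Hoxa2 (2.27), Hoxb5 (2.13), Hoxa4 (2.08), Hoxc4 (1.10) and Hoxa6 (1.05). Of the 16 neighbouring pairs in this order, 13 overlapped over the 6 libraries and so were not ordered beyond their spread. The 3 pairs that did not overlap were Hoxa5 above Hoxb4, Hoxb4 above Hoxb8, and Hoxa4 above Hoxc4. Just under the 1 FPKM threshold lay Hoxc5 (0.609 FPKM), followed by Hoxc9 (0.344) and Hoxa9 (0.224), and every other member was at or below 0.0493 FPKM. The coefficient of variation over the 6 libraries had a median of 12.1% for the 18 genes and of 12.8% for the 4900 other genes in the same range of levels.

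Total Hox output was nearly equal in the 2 groups. The 39 genes summed to 80.4, 82.0 and 79.1 FPKM in the siPfkfb3 libraries, against 80.0, 80.2 and 81.4 FPKM in the siScrambled libraries. The means were 80.5 ± 1.41 FPKM and 80.5 ± 0.771 FPKM (SD, n = 3 each), and the groups overlapped. Within this total, paralog groups 1 to 3 summed to 23.4 ± 0.373 FPKM in siPfkfb3 and 26.9 ± 1.03 FPKM in siScrambled libraries. Paralog groups 4 to 8 went the other way, at 51.2 ± 2.04 FPKM in siPfkfb3 and 47.9 ± 1.76 FPKM in siScrambled libraries. Neither of these 2 sums overlapped between siPfkfb3 and siScrambled libraries, and the sums were not tested. Groups did not overlap for 49.5% of all tested genes. Hoxa3 alone, in groups 1 to 3, averaged 4.89 FPKM in siPfkfb3 and 6.94 FPKM in siScrambled libraries. For groups 4 to 8 the lowest siPfkfb3 sum was 49.99 FPKM and the highest siScrambled sum 49.79 FPKM. These 2 sums were not repeated under other scalings or with a library left out. Between 16 and 18 Hox genes per library were at or above 1 FPKM.

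Between siPfkfb3 and siScrambled libraries, Hoxa3 fell, Hoxb7 rose by a small amount, and no other Hox gene passed the test. A gene is said to have passed, or to have been called, when limma on log2(FPKM + 1) gave a Benjamini-Hochberg adjusted p under 0.05 over the 11240 genes whose mean reached 1 FPKM. Of the 18 Hox genes tested, 2 were called (11.1%), against 36.3% of all tested genes. The 1 Hox gene called higher stands beside 15.8% of all tested genes called higher, and the 1 called lower beside 20.5% called lower. Over the 18 genes the median log2 fold change was 0.01, against -0.02 over all tested genes, and the median absolute log2 fold change was 0.09, against 0.14. Of the 4827 other tested genes with means between 1.05 and 7.79 FPKM, 27.8% were called. The 95% interval of the log2 fold change had a median half-width of 0.20 for the Hox genes, 0.19 for those genes of like level and 0.15 for all tested genes.

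**Figure D3:**
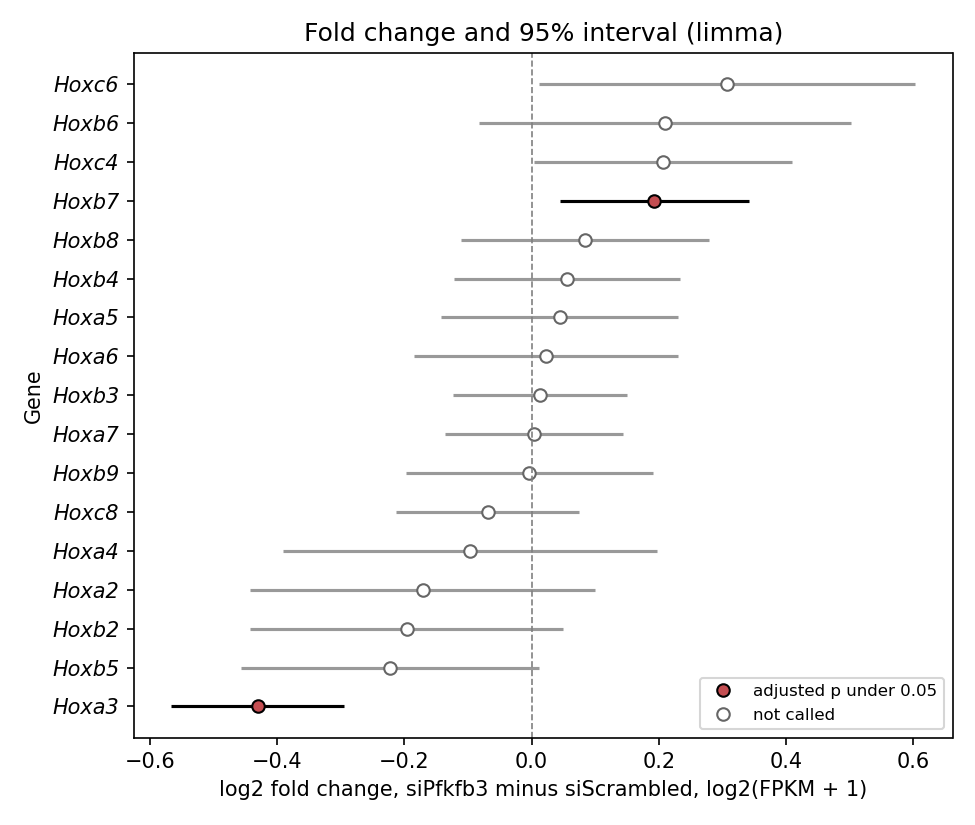
Log2 fold change of FPKM + 1, siPfkfb3 minus siScrambled, for 17 Hox genes above 1 FPKM, with 95% limma intervals as bars. Hoxa3 lies lowest at -0.43 with an interval from -0.57 to -0.29, Hoxb7 is at 0.19 with an interval from 0.04 to 0.34, and the other genes drawn did not pass the threshold.

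Hoxa3, which the mouse embryo needs for the thymus, parathyroid and other derivatives of the pharyngeal region, was at 4.61, 5.03 and 5.04 FPKM in the siPfkfb3 libraries, against 7.06, 6.91 and 6.84 FPKM in the siScrambled libraries. Every siPfkfb3 library was below every siScrambled library. The siPfkfb3 mean of 4.89 ± 0.245 FPKM was 70.5% of the siScrambled mean of 6.94 ± 0.110 FPKM (SD, n = 3 each). On the log2(FPKM + 1) scale it fell by 0.43 ± 0.06 (SE, 95% interval -0.57 to -0.29, limma adjusted p = 0.000480), and it was called under all 17 alternative settings. In bulk RNA such as this, fewer cells of a type and less RNA per cell cannot be told apart.

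Hoxa3 (ENSMUSG00000079560, chromosome 6, 52169062 to 52213336) has an annotated span that contains the whole of Hoxa4, Hoxa5 and Hoxa6. Its exons overlap those of Gm28308 on the same strand, and those of Hoxaas2, Hoxaas3, Gm29430 and 5730596B20Rik on the opposite strand. None of these genes has a row among those tested, and whether counting used strand is not given in the sources used here, so reads from them cannot be told apart from Hoxa3. The 3 genes inside the span did not pass the test. Hoxa4 and Hoxa5 were at log2 fold changes of -0.10 (95% interval -0.39 to 0.20) and 0.04 (-0.14 to 0.23), and Hoxa6 at 0.02 (-0.18 to 0.23). Exons of 16 of the 39 Hox genes overlap those of another gene, 8 of them among the 18 tested.

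Its paralog Hoxb3, which acts with Hoxa3 in the pharyngeal region and hindbrain, was at 7.35, 7.96 and 8.17 FPKM in the siPfkfb3 libraries, against 7.93, 7.93 and 7.38 FPKM in the siScrambled libraries. The groups overlapped (log2 fold change 0.01, 95% interval -0.12 to 0.15, limma adjusted p = 0.892). The interval of Hoxb3 lies wholly above that of Hoxa3. As a sum, paralog group 3 was at 12.7 ± 0.633 FPKM in the siPfkfb3 libraries and at 14.7 ± 0.405 FPKM in the siScrambled libraries. HoxA as a whole was at 23.8, 24.3 and 23.8 FPKM in the siPfkfb3 libraries, against 26.6, 26.6 and 26.3 FPKM in the siScrambled libraries. The difference was -2.55 FPKM, of which -0.509 FPKM remained without Hoxa3. The HoxA sums did not overlap between the groups, with or without Hoxa3. HoxB summed to 41.0 ± 0.865 FPKM in siPfkfb3 and 40.0 ± 0.326 FPKM in siScrambled libraries, and the groups overlapped. HoxC summed to 15.5 ± 1.11 FPKM in siPfkfb3 and 13.9 ± 1.16 FPKM in siScrambled libraries, and the groups overlapped too.

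Hoxb7 (ENSMUSG00000038721, chromosome 11, 96286623 to 96290162), a gene of thoracic patterning, was at 7.17, 7.55 and 7.59 FPKM in the siPfkfb3 libraries, against 6.24, 6.96 and 5.97 FPKM in the siScrambled libraries. The siPfkfb3 libraries were all above the siScrambled libraries. It rose by 0.19 ± 0.07 on the log2 scale (95% interval 0.04 to 0.34, limma adjusted p = 0.0463). The call held in 9 of 17 alternative settings, with adjusted p-values from 0.0193 to 0.152, and was lost without siPfkfb3 replicate 1 (0.0604), 2 (0.110) or 3 (0.119) and without siScrambled replicate 1 (0.116) or 3 (0.152).

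**Figure D4:**
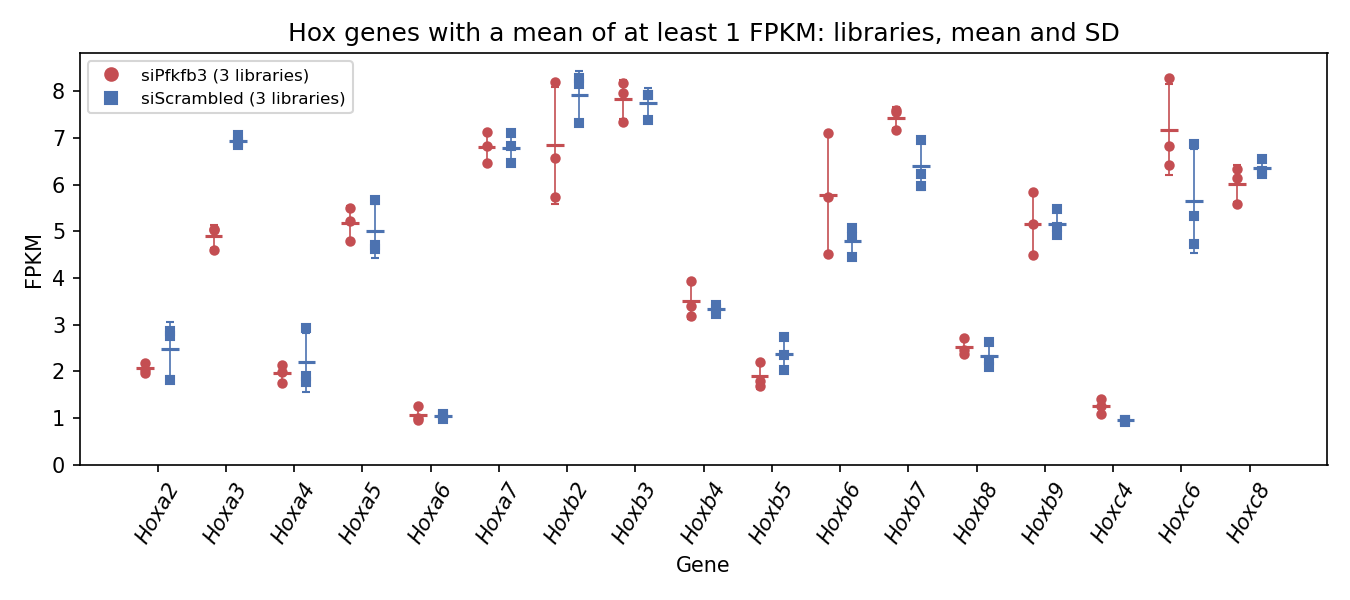
FPKM in each library for 17 Hox genes above 1 FPKM, siPfkfb3 left of siScrambled, with 1 point per library, the group mean as a horizontal tick and its SD as a bar. The siPfkfb3 libraries of Hoxa3 lie between 4.61 and 5.04 FPKM, below all siScrambled libraries, while those of Hoxb7 lie between 7.17 and 7.59 FPKM, above all siScrambled libraries.

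Groups did not overlap for 3 of the 18 tested Hox genes, against 49.5% of all tested genes, and the one beside Hoxa3 and Hoxb7 was Hoxc4. Hoxc4, a gene of neck and upper thoracic identity, was at 1.26, 1.09 and 1.42 FPKM in the siPfkfb3 libraries, against 0.964, 0.923 and 0.964 FPKM in the siScrambled libraries. It lay at the threshold of 1 FPKM and did not pass the test (log2 fold change 0.21, 95% interval 0.00 to 0.41, limma adjusted p = 0.104), except in limma without trend and robust fit, where adjusted p was 0.0349. The other HoxC genes tested were Hoxc6 and Hoxc8. Hoxc6, a gene of the upper thorax, was at 6.83, 8.29 and 6.42 FPKM in the siPfkfb3 libraries, against 5.32, 4.72 and 6.88 FPKM in the siScrambled libraries. The groups overlapped through siScrambled replicate 3 alone among its group (log2 fold change 0.31, 95% interval 0.01 to 0.60, limma adjusted p = 0.0989), and without that library adjusted p was 0.0156. Hoxc8 had a log2 fold change of -0.07 (95% interval -0.21 to 0.07).

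The head-side genes of group 2 did not pass the test. Hoxa2, which gives the second pharyngeal arch its identity, was at 1.96, 2.19 and 2.03 FPKM in the siPfkfb3 libraries, against 2.76, 2.87 and 1.81 FPKM in the siScrambled libraries. Its siScrambled replicate 3 lay below all siPfkfb3 libraries (log2 fold change -0.17, limma adjusted p = 0.302; 0.0256 without that library). Hoxb2, a gene of the hindbrain and its facial motor neurons, was at 8.20, 5.74 and 6.58 FPKM in the siPfkfb3 libraries, against 8.16, 7.31 and 8.28 FPKM in the siScrambled libraries. The siPfkfb3 replicate 1 was the only library of its group inside the siScrambled range (log2 fold change -0.20, limma adjusted p = 0.192; 0.0173 without that library).

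Among the middle groups, Hoxb6, a gene of the cervical and thoracic region, was at 5.74, 7.10 and 4.52 FPKM in the siPfkfb3 libraries, against 4.45, 4.87 and 5.08 FPKM in the siScrambled libraries. Its siPfkfb3 replicates 1 and 2 lay above the siScrambled range and replicate 3 inside it (log2 fold change 0.21, limma adjusted p = 0.238; 0.0221 without siPfkfb3 replicate 3). Hoxb5, which acts in the enteric nervous system and in endothelial progenitors, was at 1.68, 2.21 and 1.79 FPKM in the siPfkfb3 libraries, against 2.35, 2.74 and 2.04 FPKM in the siScrambled libraries (log2 fold change -0.22, 95% interval -0.46 to 0.01, limma adjusted p = 0.127). Its groups overlapped in 1 library on each side.

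For 5 further genes the groups overlapped. Hoxa7 averaged 6.81 ± 0.327 FPKM in siPfkfb3 and 6.79 ± 0.326 FPKM in siScrambled libraries (SD, n = 3 each; log2 fold change 0.00, 95% interval -0.14 to 0.14). Hoxb9 averaged 5.17 ± 0.675 FPKM in siPfkfb3 and 5.16 ± 0.289 FPKM in siScrambled libraries (log2 fold change 0.00, 95% interval -0.20 to 0.19). Hoxa5, which shapes lung and neck in the embryo, averaged 5.18 ± 0.361 FPKM in siPfkfb3 and 5.002 ± 0.577 FPKM in siScrambled libraries. None of these 3 genes was called. Hoxb4, known from blood stem cell expansion, averaged 3.51 ± 0.379 FPKM in siPfkfb3 and 3.33 ± 0.0964 FPKM in siScrambled libraries. Hoxb8, studied in myeloid cells and microglia, averaged 2.51 ± 0.178 FPKM in siPfkfb3 and 2.32 ± 0.276 FPKM in siScrambled libraries (log2 fold change 0.08, 95% interval -0.11 to 0.28).

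Of the members under 1 FPKM, Hoxc9 was at 0.429, 0.479 and 0.412 FPKM in the siPfkfb3 libraries, against 0.298, 0.257 and 0.191 FPKM in the siScrambled libraries. The groups did not overlap. In the fit that took genes from 0.1 FPKM with a pseudocount of 0.1, it had a log2 fold change of 0.64 and limma adjusted p = 0.0992, where 12.3% of 14356 genes were called higher and 16.0% lower. In the fit without a filter on low values it had a log2 fold change of 0.21 and limma adjusted p = 0.0519. Hoxc5, which shares exons with Hoxc10, was at 0.465 to 0.652 FPKM in the siPfkfb3 libraries and at 0.549 to 0.780 FPKM in the siScrambled libraries. Hoxa9 was at 0.177 to 0.211 FPKM in the siPfkfb3 libraries and at 0.110 to 0.462 FPKM in the siScrambled libraries. Chosen after their values were seen, Hoxa10 was above 0 in all siPfkfb3 libraries (0.0188 to 0.0768 FPKM) and listed at 0 in all siScrambled libraries, and Hoxc13, a gene of hair and nail, was listed at 0 in all siPfkfb3 libraries and at 0.0294 to 0.0622 FPKM in the siScrambled libraries. Neither was called in the fit without a filter on low values (limma adjusted p = 0.141 and 0.104).

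Among the TALE partners of Hox proteins, 3 fell and 1 rose out of 8 tested, beside 20.5% lower and 15.8% higher among all tested genes, with a median log2 fold change of -0.21 against -0.02 over all tested genes. Pbx3 was at 3.96, 3.96 and 4.06 FPKM in the siPfkfb3 libraries, against 5.88, 5.38 and 5.77 FPKM in the siScrambled libraries (log2 fold change -0.42, limma adjusted p = 0.000719). Pknox1, the partner also known as Prep1, was at 3.55, 3.27 and 3.07 FPKM in the siPfkfb3 libraries, against 4.97, 4.88 and 4.57 FPKM in the siScrambled libraries (-0.44, limma adjusted p = 0.00119). Both genes were lower in every siPfkfb3 library. Meis2, the most abundant MEIS gene here, averaged 11.3 ± 0.432 FPKM in siPfkfb3 and 14.2 ± 0.991 FPKM in siScrambled libraries (-0.30, limma adjusted p = 0.00340). Meis3 rose to 9.17 ± 0.346 FPKM in siPfkfb3 libraries, against 7.88 ± 0.714 FPKM in siScrambled libraries (0.20, limma adjusted p = 0.0474), a call lost in 9 of 17 alternative settings with adjusted p-values up to 0.137. Pbx2, Meis1 and Pknox2 were not called, at log2 fold changes of -0.05, -0.42 and 0.14. For Meis1 the siPfkfb3 libraries were at 4.76, 4.58 and 2.76 FPKM, against 5.84, 4.91 and 6.11 FPKM in the siScrambled libraries. Summed over the 9 TALE genes listed, expression was 69.8 to 74.4 FPKM in the siPfkfb3 libraries and 79.1 to 80.4 FPKM in the siScrambled libraries.

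For each list of regulators, positional genes or neighbours, the background is the 15.8% of all tested genes called higher and the 20.5% called lower. Of 11 genes of Polycomb repressive complex 2, which methylates histone H3 at lysine 27, 3 rose and 3 fell, with a median log2 fold change of 0.14. Its catalytic subunit Ezh2 was at 7.51, 7.40 and 8.72 FPKM in the siPfkfb3 libraries, against 10.7, 12.1 and 10.4 FPKM in the siScrambled libraries (-0.44, limma adjusted p = 0.00164). The accessory subunit Phf19 also fell (-0.35), while the accessory subunit Phf1 rose (0.26) and the core subunit Eed rose (0.21). The Phf1 call was lost in 5 of 17 alternative settings, with adjusted p-values up to 0.0831. Of 15 tested genes of Polycomb repressive complex 1, which ubiquitinates histone H2A, 3 rose and 2 fell, with a median of 0.07. Pcgf3 averaged 16.7 ± 0.513 FPKM in siPfkfb3 and 10.9 ± 0.785 FPKM in siScrambled libraries, a log2 fold change of 0.58. Pcgf2, also known as Mel18, averaged 6.43 ± 0.252 FPKM in siPfkfb3 and 4.25 ± 0.309 FPKM in siScrambled libraries, a log2 fold change of 0.50. The polyhomeotic subunits Phc1 and Phc2 fell by 0.30 and 0.28, and the Phc1 call was lost in 5 of 16 alternative settings.

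The trithorax list held 12 genes: those of the COMPASS histone H3 lysine 4 methyltransferases, Ash1l and the lysine 27 demethylases. Of these, 0 rose and 2 fell, with a median log2 fold change of -0.04. The 2 were the shared subunit Dpy30 (-0.26, limma adjusted p = 0.0153) and Men1, which encodes menin (-0.18, limma adjusted p = 0.0180). The Dpy30 call was lost in 4 and the Men1 call in 2 of 17 alternative settings. Of the factors listed for acting on Hox genes in the embryo, Cdx2 and Cdx4 were listed at 0. Of 8 tested out of 12 listed, Ctcf among them, 2 rose and 1 fell, with a median of 0.06. The retinoic acid receptors Rxra and Rarg rose by 0.21 and 0.20, and the ligand Gdf11, which turns on 5′ Hox genes in the trunk, fell by 0.35.

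**Figure D5:**
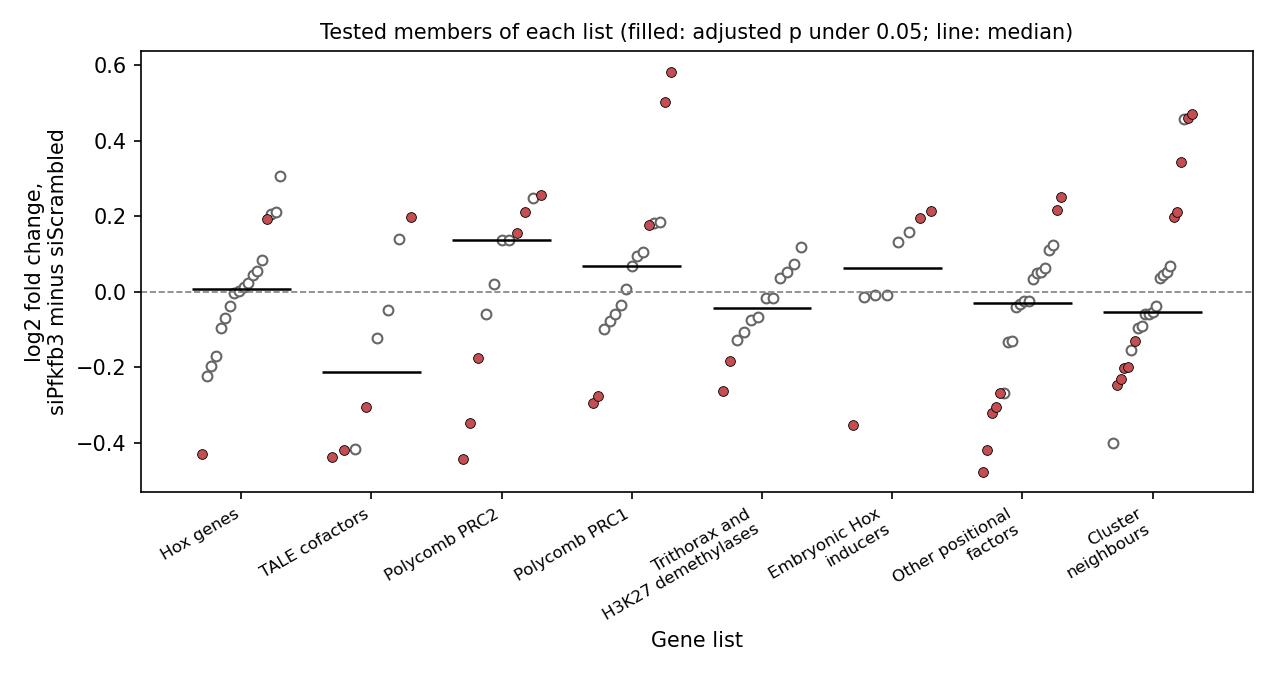
Log2 fold change of FPKM + 1, siPfkfb3 minus siScrambled, for each tested gene of the Hox set and of the lists of partners, regulators and neighbours; filled points passed the limma threshold, open points did not, and ticks give the medians. The Hox genes hold 2 called genes of 18 with a median of 0.01, and the TALE partners 4 of 8 with a median of -0.21.

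Other genes of positional identity were read beside the Hox genes. Prrx1, of limb and craniofacial mesenchyme, had a mean of 59.0 FPKM, Gata6, of outflow tract smooth muscle, 22.3 FPKM, Tbx18, of the epicardium and mural cells, 10.1 FPKM, Tbx20, of the heart, 5.30 FPKM, and Hand2, of heart and limb, 4.46 FPKM. Other heart genes of the list were low: Nkx2-5, Isl1 and Hand1 had means of 0.0251, 0.102 and 0.203 FPKM, and Gata5 was listed at 0. The limb genes Tbx5, Tbx4 and Pitx1 had means of 0.305, 0.141 and 0.0100 FPKM, while Tbx15 and Msx1, also on the list, had 5.28 and 2.37 FPKM. These levels do not settle where the cells came from. Of 20 genes tested from a list of 47, 2 rose and 5 fell (median log2 fold change -0.03). Gata6 was among the 5, at 20.1 ± 1.01 FPKM in siPfkfb3 and 24.4 ± 0.267 FPKM in siScrambled libraries (log2 fold change -0.27, limma adjusted p = 0.00187). Gata4, a cardiac factor, fell by 0.48 on the log2 scale, and Twist1, of mesenchyme, fell by 0.42. Nr2f2, of veins and mesenchyme, and Twist2 fell by 0.30 and 0.32, and the Twist2 call was lost in 4 of 17 alternative settings. None of 7 Hox-related homeobox genes outside the clusters had a mean of 1 FPKM, the highest being Gbx2 at 0.882 FPKM.

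Of 23 tested genes that flank the clusters out of 29 listed, 5 rose and 5 fell, beside 15.8% higher and 20.5% lower among all tested genes, with a median log2 fold change of -0.05. Skap2, a signalling adaptor gene 143 kb from HoxA, averaged 24.1 ± 0.997 FPKM in siPfkfb3 and 17.1 ± 0.907 FPKM in siScrambled libraries (log2 fold change 0.47, limma adjusted p = 0.000119). Nfe2l1, a gene for a transcription factor of proteasome genes, lies 449 kb from HoxB and rose by 0.46. Cbx1, which encodes a heterochromatin protein, lies 421 kb from HoxB and rose by 0.34. The tested genes nearest to HoxB, Atp5g1 (119 kb), Ube2z (129 kb) and Snf8 (147 kb), were not called. The listed genes lie up to 910 kb from a cluster. Mtx2 beside HoxD fell by 0.25, a call lost in 6 of 17 alternative settings with adjusted p-values up to 0.0975. None of 18 listed non-coding RNAs and microRNAs of the Hox clusters has a row under its name in the table used here.

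Cell type markers were summed in each library. The background for called markers is again the 15.8% of all tested genes called higher and the 20.5% called lower. Smooth muscle markers summed to 2522 to 2600 FPKM in the siPfkfb3 libraries and to 2172 to 2271 FPKM in the siScrambled libraries, with 4 of 10 called higher and 0 lower, and a median log2 fold change of -0.05. Most of the difference in the sum was Acta2, at 1700 FPKM in siPfkfb3 and 1340 FPKM in siScrambled libraries. Tagln, Myh11, Smtn, Des and Myocd were not called, and each had every siPfkfb3 library below every siScrambled library. Groups did not overlap, in either direction, for 49.5% of all tested genes. Adventitial fibroblast markers summed to 1037 to 1056 FPKM in the siPfkfb3 libraries and to 1064 to 1097 FPKM in the siScrambled libraries (2 of 8 higher, 4 lower). Cartilage markers summed to 199 to 227 FPKM in the siPfkfb3 libraries, against 101.2 to 107.1 FPKM in the siScrambled libraries (4 of 5 tested higher). Neural crest and Schwann cell markers summed to 18.7 to 19.4 FPKM in the siPfkfb3 libraries, against 25.4 to 27.2 FPKM in the siScrambled libraries (3 of 5 tested lower). Mesothelial markers summed to 2.02 to 2.42 FPKM in the siPfkfb3 libraries, against 4.97 to 6.00 FPKM in the siScrambled libraries, with Upk3b the 1 of 5 tested and lower. Heart and skeletal muscle markers summed to 14.8 to 16.4 FPKM in the siPfkfb3 libraries, against 31.9 to 35.5 FPKM in the siScrambled libraries, through Tnnt2, with Myh6, Ckm, Myod1 and Pax7 listed at 0. Endothelial markers summed to 0.550 to 0.841 FPKM in the siPfkfb3 libraries and to 1.01 to 1.17 FPKM in the siScrambled libraries, with none tested. Leukocyte markers summed to 16.0 to 16.6 FPKM in the siPfkfb3 libraries and to 14.8 to 15.4 FPKM in the siScrambled libraries, with 0 of 3 tested called. Their part in the Hoxa3 and Hoxb7 results was not tested.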

How the data were processed

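RNA from 6 libraries of mouse VSMCs was sequenced as mRNA libraries. Per the submitters' processing notes, HISAT2 aligned the reads to GRCm38 (mm10). Its version, the counting tool, the use of strand and the annotation release were not given in the sources used here. Titles gave group and replicate. The FPKM table the authors deposited has a column per library, 22036 Ensembl rows and 2934 rows of new genes, and 22022 Ensembl identifiers matched a symbol.

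Genes whose mean reached 1 FPKM were tested on log2(FPKM + 1), a pseudocount of 1 that understates changes of low genes, with limma 3.58.1 in R 4.3.3 (intensity trend, robust fit, two-sided) and Benjamini-Hochberg adjustment over all 11240 genes. Fold changes are siPfkfb3 minus siScrambled. No count test was possible. Tested on simulated data, the fit recovered 100 of 100 genes shifted by 0.5 and 100 of 100 shifted by 1 (log2), and called 13 of 11040 unchanged genes. Each simulated gene had the spread typical of its level. Recovery of noisier genes, such as Meis1 (log2 fold change -0.42 ± 0.17, SE, not called), was not tested. Alternatives were other pseudocounts, filters, scalings, fit options, a replicate block and leaving out each library.

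Named were 17 Hox genes above 1 FPKM, the 3 next, up to 4 called genes of a list by size of change, and genes read for their level alone (Prrx1, Tbx18, Tbx20, Hand2, Gata6, Tbx4, Tbx5, Pitx1, Lnpk and Evx2), which lie outside that rule. One further Hox gene and a TALE gene are counted but not reported here. The members and lists were chosen with earlier results of these data known. Positions and exons are GENCODE M21; promoters are RefSeq. Python 3.11.15 and matplotlib 3.10.9 made summaries and figures.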

Additional observations from a re-analysis of the deposited data

How the results depend on the processing

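The count of 2 called Hox genes (1 higher, 1 lower) became 1 (0 higher) without a filter on low values, with genes from 0.1 FPKM and a pseudocount of 0.1, and with the replicate block; in each case Hoxb7 lost its call. Limma without trend and robust fit called 2 Hox genes higher. Leaving out 1 library gave 1 to 3 called, 0 to 1 higher and 1 to 2 lower. Hoxa3 was lower under every alternative, with log2 fold changes from -0.50 to -0.40. The HoxA difference of -2.55 FPKM was -2.17 on the TPM scale and -0.509 without Hoxa3, an alternative chosen after seeing the data. The log2 fold change of Hoxb9, 0.00 and just below 0 as reported, was 0.0161 under TPM, 0.0168 under median-ratio and 0.0173 under quantile scaling. With 1 library left out, log2 fold changes ranged from -0.192 to 0.0596 for Hoxa4, -0.0387 to 0.0576 for Hoxa6, -0.0283 to 0.0346 for Hoxa7, -0.0179 to 0.0520 for Hoxb3, -0.0105 to 0.106 for Hoxb4 and -0.0818 to 0.0767 for Hoxb9; none of these genes was called. Equal replicate numbers were not taken as pairing, since the labels do not say that they share a culture. Deviations of equally numbered libraries correlated at -0.114, 0.0598 and 0.0550, and those of unequally numbered libraries at -0.160 to 0.120. The replicate block called 1680 genes higher and 2227 lower, against 1775 and 2304 without it. Rescaling to TPM gave 1950 higher and 2038 lower, median-ratio scaling 2014 and 2037, and quantile normalization 1982 and 2042. The excess of lower over higher calls in the background of all tested genes was thus smaller under these 3 scalings. Where an alternative changed a call, the cause was not tested. FPKM without counts gives no counting error.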
